A study of Ovis aries with 42 samples.

Results

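Fetal sheep liver was compared between d120 and d100, read as gestation days, for the change shared by both genotypes of the series. The members are the 8 liver libraries labelled with either stage, out of 24 liver libraries and 42 samples in all. They form 4 groups of 2 libraries, which are CF at d120, WT at d120, CF at d100 and WT at d100. CF sheep carry a disrupted CFTR gene, written CFTR-/- in the series title, and WT sheep are wild type; the labels used here give no allele and no treatment. The test set 4 d120 libraries against 4 d100 libraries with genotype as a covariate, so that a step that differs between the genotypes counts as spread. The donor numbers of the 8 libraries all differ, but the 2 WT d120 numbers share a stem, as do the 2 WT d100 numbers. Whether a stem marks a litter is not given, so that stem and stage cannot be told apart in WT. The donor number of CF d100 replicate 2 is also given to a WT liver library of another stage, and values without that library are stated below.

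The liver of a mammalian fetus is a blood-forming organ before it becomes a mainly metabolic one. Haematopoietic cells seed it early, form red cells, granulocytes and megakaryocytes, and leave for the bone marrow towards birth. Hepatocytes meanwhile stop making alpha-fetoprotein and begin to secrete the clotting factors, complement proteins and transport proteins of adult plasma. These libraries were made from whole tissue, so fewer cells of a type and less RNA per cell cannot be told apart.

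Depth was between 37720454 and 54471038 estimated counts per library. The hepatocyte markers had summed levels of 136000 to 207000 CPM, counts scaled to a common library total, at d120 and 172000 to 194000 CPM at d100, with all 22 of 22 markers tested. Albumin (ALB), the main plasma protein of liver, averaged 79100 ± 13400 CPM at d120 and 80600 ± 5010 CPM at d100 (SD, n = 4 each). CFTR was at 17.4 and 6.03 CPM in CF and 1.01 and 2.82 CPM in WT at d120, against 5.66 and 3.01 CPM in CF and 1.72 and 1.77 CPM in WT at d100. No label says which part of the gene is disrupted, and these counts therefore do not check the genotype labels. Its step did not pass the test (log2 fold 0.82 ± 0.45 SE, adjusted p = 0.257, edgeR). The 2 CF d120 libraries stood apart, at 38.1 and 25.5 on the first principal component, which held 56.3% of the variance, against -18.8 to -2.63 for the other 6. Their TMM scaling factors were 1.35 and 1.12, against 0.872 to 0.999 in the others. Summed erythroid markers were at 64800 and 79200 CPM in CF and 212000 and 167000 CPM in WT at d120, against 141000 to 234000 CPM at d100. The part of this in the results was not tested, and values without both CF d120 libraries are given beside the main lists.

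Of 15322 genes tested, 537 (3.5%) passed an adjusted p of 0.05 in edgeR's quasi-likelihood test and are referred to as called. At d120, 303 genes (1.98%) were called higher and 234 (1.53%) were called lower. The step was at least 2-fold for 153 of those called higher and for 115 of those called lower. The same sign held in CF alone and in WT alone for 536 of the 537 genes. The test itself favours this, because it counts a difference between the genotypes as spread. It also used these same libraries, so the agreement is not separate evidence of a shared step. Of the 537, 472 had no overlap between the 4 d120 and the 4 d100 libraries. Such separation was found in 7.06% of all genes tested on the higher side and in 6.23% on the lower side. Called genes moved further in CF livers, with the larger step in CF for 237 of the 303 called higher and for 176 of the 234 called lower. The share of all genes with a larger step in CF was not counted, so this is not shown to be particular to called genes. Of all 16508 genes in the fit of 24 libraries, 4043 had an unadjusted p under 0.05 for the CF step and 780 for the WT step (edgeR). Where no gene changes, a share of 0.05 would have such a p by chance. The WT count was below that share, so WT alone showed no excess of small p-values. The median step of genes called higher was 1.22 in CF and 0.767 in WT on the log2 scale, and that of genes called lower was -1.14 in CF and -0.828 in WT. The median over all genes tested was 0.0239.

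**Figure D1:**
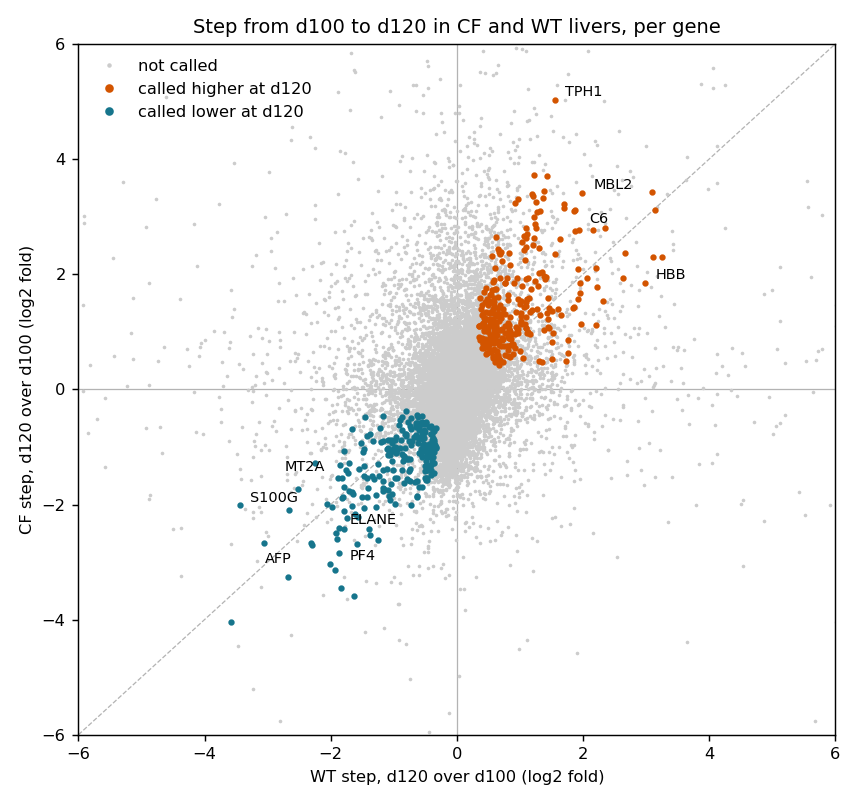
Each point is 1 gene, with its log2 fold of d120 over d100 in WT livers (horizontal) and in CF livers (vertical); the dashed line marks equal steps, and 159 genes, 5 of them called, lie beyond the axes. Of the 537 called genes, 536 have the same sign on both axes, those called higher in the upper right and those called lower in the lower left, and most of them lie further from 0 on the CF axis. The shared test favours genes with the same sign, because it counts a difference between the genotypes as spread.

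The number of calls depended on single libraries. Leaving out 1 library gave 82 calls without CF d120 replicate 2, 176 without CF d120 replicate 1, 97 and 90 without CF d100 replicates 1 and 2, 162 without WT d120 replicate 2 and 123 without WT d100 replicate 1. It gave 1280 calls without WT d120 replicate 1 and 2232 without WT d100 replicate 2. There were 66 genes that remained called whichever library was left out, and leaving out both CF d120 libraries gave 120 calls, 78 of them among the 537. There were 41 genes, 13 higher and 28 lower, that were called under all 16 other settings tried, to which the setting without both CF d120 libraries was added as number 17. Of the 41, 8 were on the megakaryocyte and platelet list, 2 on the granulocyte list and 4 on the complement and coagulation list. None of the 537 genes changed sign under the 17 alternatives tried.

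Megakaryocyte and platelet genes were lower at d120 in both genotypes. Of 16 list members tested, 9 were called lower, the other 7 were not called, and all 16 had a negative log2 fold. The median was -1.37 over the list, -1.55 in CF alone and -1.28 in WT alone, against 0.0239 over all genes tested. PF4, the platelet factor 4 chemokine of alpha granules, was at 21.7 and 22.9 CPM in CF and 59.6 and 46.8 CPM in WT at d120, against 154 and 163 CPM in CF and 156 and 235 CPM in WT at d100. Every d120 library lay far below every d100 library. PF4 was thus 5.12-fold lower (log2 fold -2.36 ± 0.22 SE, adjusted p = 0.00154, edgeR), and it remained called under all 17 alternatives.

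TUBB1, the beta-tubulin of the platelet marginal band, was at 7.55 and 7.91 CPM in CF and 20.3 and 16.2 CPM in WT at d120, against 45.4 and 47.4 CPM in CF and 51.9 and 86.3 CPM in WT at d100. ITGB3, the beta chain of the fibrinogen receptor, was at 9.15 and 8.33 CPM in CF and 18.5 and 12.3 CPM in WT at d120, against 37.4 and 34.2 CPM in CF and 53.0 and 69.5 CPM in WT at d100. In both genes the CF libraries were below the WT libraries at d120 and also at d100, and neither gene's stages overlapped. ITGA2B, the alpha chain of the same receptor, was 3.13-fold lower, TREML1, a receptor of platelet granules, 5.71-fold, and PPBP, the precursor of platelet basic protein, 4.60-fold. PLEK, a substrate of protein kinase C in platelets, was 3.34-fold lower and F13A1, the catalytic chain of clotting factor XIII, 3.32-fold. CLEC1B, the podoplanin receptor, completed the 9 at 1.88-fold, and it was called under 9 of 17 alternatives. F2RL3, the thrombin receptor PAR4, was not on the list and was at 0.153 and 0.442 CPM in CF and 2.03 and 0.536 CPM in WT at d120, against 2.96 to 5.04 CPM at d100 (6.09-fold lower, adjusted p = 0.035, edgeR). Between 8 and 11 members were called when 1 library was left out, and 8 without both CF d120 libraries.

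Granulocyte genes were also lower at d120, with 9 of 16 members tested called lower. The median was -1.33 over the list, -1.45 in CF alone and -1.24 in WT alone. Those called were ELANE, AZU1, PRTN3 and MPO, which encode proteins of the primary granules of neutrophil precursors, LTF and LCN2 of the secondary granules, and the calcium-binding proteins S100A8, S100A9 and S100A12 of the cytosol. ELANE, neutrophil elastase, was at 2.56 and 3.50 CPM in CF and 3.78 and 5.25 CPM in WT at d120, against 10.6 and 21.4 CPM in CF and 16.6 CPM in both WT libraries at d100. It was 4.39-fold lower, without overlap (log2 fold -2.14 ± 0.25 SE, adjusted p = 0.00384, edgeR). AZU1, azurocidin, averaged 8.97 ± 1.63 CPM at d120 and 34.4 ± 8.51 CPM at d100 (SD, n = 4 each), and MPO, myeloperoxidase, 12.1 ± 2.11 CPM and 38.7 ± 10.3 CPM. S100A8 was 3.31-fold and S100A9 2.79-fold lower.

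ITGAM, CXCR1 and CXCR2, surface proteins of circulating granulocytes and other leukocytes, were not called, with log2 folds of 1.61, 0.42 and 0.08. Between 6 and 9 granulocyte genes were called when 1 library was left out, fewest without CF d120 replicate 2 or CF d100 replicate 2. There were 6 without both CF d120 libraries and 2 when the spread was taken from all 24 liver libraries. HP, haptoglobin, which in human is stored in neutrophil granules as well as secreted by liver, was on the acute phase list and was 2.10-fold lower.

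**Figure D2:**
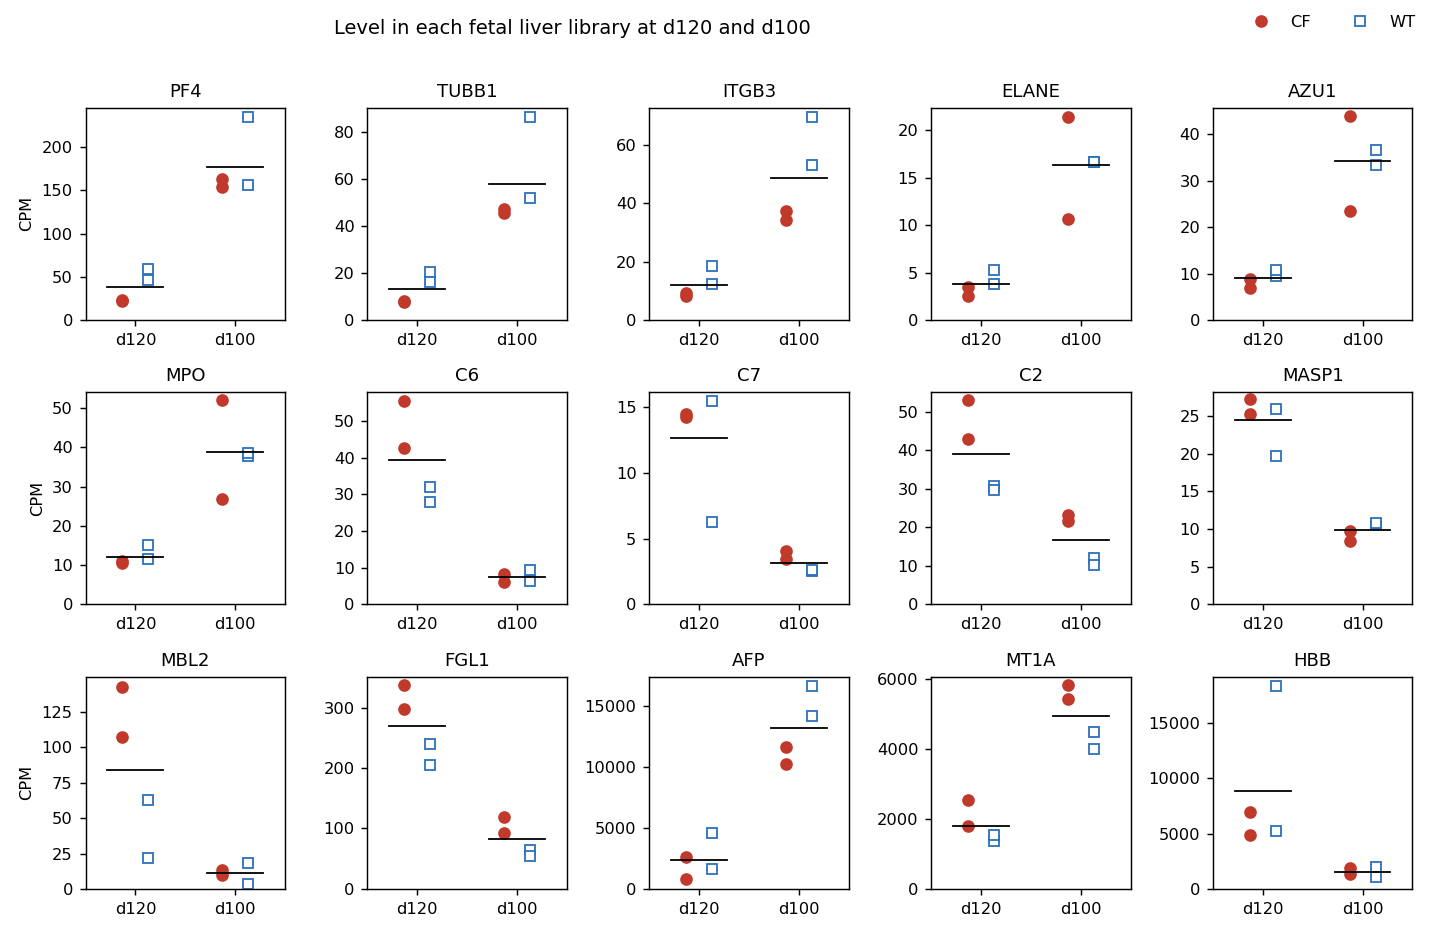
CPM of 15 genes in each library, d120 left and d100 right in every panel, with CF as filled circles, WT as open squares and the mean of 4 libraries as a line. The platelet, granule, AFP and MT1A panels are lower at d120 without overlap, and the 5 complement panels, FGL1 and HBB are higher without overlap.

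Complement and coagulation genes were higher at d120, and no other of the 36 lists had as many members called higher. Of 46 members tested, 14 were called higher, the other 32 were not called, and 40 had a positive log2 fold. The median was 0.405 over the list, 0.428 in CF alone and 0.378 in WT alone. Summed over the list the levels were 41600 and 47200 CPM in CF and 40300 and 42400 CPM in WT at d120, against 29700 to 31800 CPM in the 4 d100 libraries. By an unadjusted p of 0.05, 31 members were higher, where 14.3% of all genes tested were, and DESeq2 called 26 higher, against 8.83% of all genes to which it gave an adjusted p.

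The terminal pathway, whose proteins assemble the membrane attack complex, held C6 and C7. C6 was at 55.4 and 42.6 CPM in CF and 32.0 and 28 CPM in WT at d120, against 6.15 and 8.20 CPM in CF and 6.44 and 9.39 CPM in WT at d100. It was 5.09-fold higher without overlap (log2 fold 2.35 ± 0.22 SE, adjusted p = 0.00154, edgeR). C7 was at 14.3 and 14.5 CPM in CF and 6.31 and 15.5 CPM in WT at d120, against 4.07 and 3.44 CPM in CF and 2.58 and 2.66 CPM in WT at d100 (4-fold, adjusted p = 0.00573, edgeR). C5, which begins that assembly, was 2.13-fold higher, and C8A, a chain of its pore-forming part, 1.77-fold.

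The lectin pathway was represented by MBL2, mannose-binding lectin, and its protease MASP1. MBL2 was at 143 and 107 CPM in CF and 62.8 and 22.1 CPM in WT at d120, against 10 and 13.2 CPM in CF and 3.59 and 18.2 CPM in WT at d100. The stages did not overlap, but the lower WT d120 library was close to the higher WT d100 library, and MBL2 was called under 10 of 17 alternatives. MASP1 averaged 24.5 ± 3.29 CPM at d120 and 9.93 ± 1.08 CPM at d100 (SD, n = 4 each), 2.47-fold higher, and was called under all 17. C2, the protease shared by the classical and lectin pathways, was at 52.9 and 43.0 CPM in CF and 30.6 and 29.7 CPM in WT at d120, against 23.2 and 21.7 CPM in CF and 12 and 10.3 CPM in WT at d100. Here the CF libraries were the higher ones at both stages.

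C1S of the classical pathway was 1.77-fold higher and C3, on which all pathways converge, 1.68-fold. C4BPA, a chain of the inhibitor C4b-binding protein, was 1.53-fold higher. Of the coagulation factors, F9 (factor IX) was 1.74-fold and FGB (fibrinogen beta chain) 1.56-fold higher, as was HRG, histidine-rich glycoprotein, at 2.41-fold. F2 (prothrombin), F7 and PROC (protein C) had log2 folds of 0.07, -0.11 and -0.04 and were not called. Between 5 and 16 members were called when 1 library was left out, 5 without both CF d120 libraries and 6 with all 24 libraries.

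Other secreted proteins moved in both directions. On the acute phase and plasma protein list, with 31 tested and a median of 0.034, 4 were called higher and 2 lower. FGL1, a hepatocyte-derived relative of fibrinogen, was at 298 and 337 CPM in CF and 205 and 240 CPM in WT at d120, against 119 and 92.8 CPM in CF and 64.0 and 54.4 CPM in WT at d100 (3.36-fold higher, adjusted p = 0.00129, edgeR). CP, the copper-carrying ferroxidase ceruloplasmin, averaged 113 ± 11.1 CPM at d120 and 45.1 ± 16.5 CPM at d100 (SD, n = 4 each), and ITIH4 and SAA4 were 1.87-fold and 2.37-fold higher. HP and LCN2 were the 2 called lower.

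AFP, alpha-fetoprotein, was at 778 and 2590 CPM in CF and 4550 and 1670 CPM in WT at d120, against 11600 and 10200 CPM in CF and 16600 and 14200 CPM in WT at d100. It was 5.66-fold lower (log2 fold -2.50 ± 0.40 SE, adjusted p = 0.0164, edgeR) and was called under all 17 alternatives. CDKN1C, an imprinted growth inhibitor, was 1.51-fold lower, and the other 20 of 22 oncofetal genes tested were not called. CYP3A28, a ruminant member of the drug-metabolising CYP3A family, was at 14.8 and 9.99 CPM in CF and 20.2 and 13.5 CPM in WT at d120, against 5.22 and 1.22 CPM in CF and 2.54 and 2.89 CPM in WT at d100 (4.87-fold higher). Of the 40 P450 and phase II genes tested, SULT1E1 and ALDH8A1 were called higher, at 1.53-fold and 1.66-fold, and CYP2J2 and GSTA1 lower, at 1.60-fold and 1.96-fold. CYP3A28 was called under 13 of 17 alternatives and the other 4 under 7 to 9.

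The erythroid list had 34 members tested, and HBB and SLC25A37, the mitochondrial iron importer mitoferrin, were called higher. The list's median was -0.432, with -0.809 in CF alone and 0.017 in WT alone. These 2 genes went against most of the list, where 28 of 34 had a negative log2 fold. At an unadjusted p of 0.05, 15 were lower and 3 higher, where 13.5% and 14.3% of all genes were. DESeq2 called 10 lower and 3 higher, against 8.71% and 8.83% of all genes. Without both CF d120 libraries edgeR called 0 lower and 1 higher. HBB, adult beta-globin, was at 4870 and 6960 CPM in CF and 18300 and 5220 CPM in WT at d120, against 1870 and 1390 CPM in CF and 1940 and 1060 CPM in WT at d100. The stages did not overlap (5.33-fold higher, log2 fold 2.41 ± 0.42 SE, adjusted p = 0.022, edgeR). HBG, the gamma-globin of fetal haemoglobin, was at 27700 and 32500 CPM in CF and 99000 and 86700 CPM in WT at d120, against 73600 to 122000 CPM at d100, and HBA1, alpha-globin, was also lowest in the 2 CF d120 libraries. Neither was called (adjusted p = 0.133 and 0.262, edgeR).

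Within each library, HBB made up 14.9% and 17.6% in CF and 15.6% and 5.68% in WT of HBB plus HBG counts at d120, against 1.13% to 1.69% at d100. This share is a ratio inside a library and does not depend on the scaling between libraries. It was 0.0734% to 0.191% at d50 and 0.168% to 0.804% at d80. At the end of gestation it was 73.0% to 98.7%, where HBG was at 1.11 to 39.6 CPM. The globins are close copies, so reads may be shared between them.

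**Figure D3:**
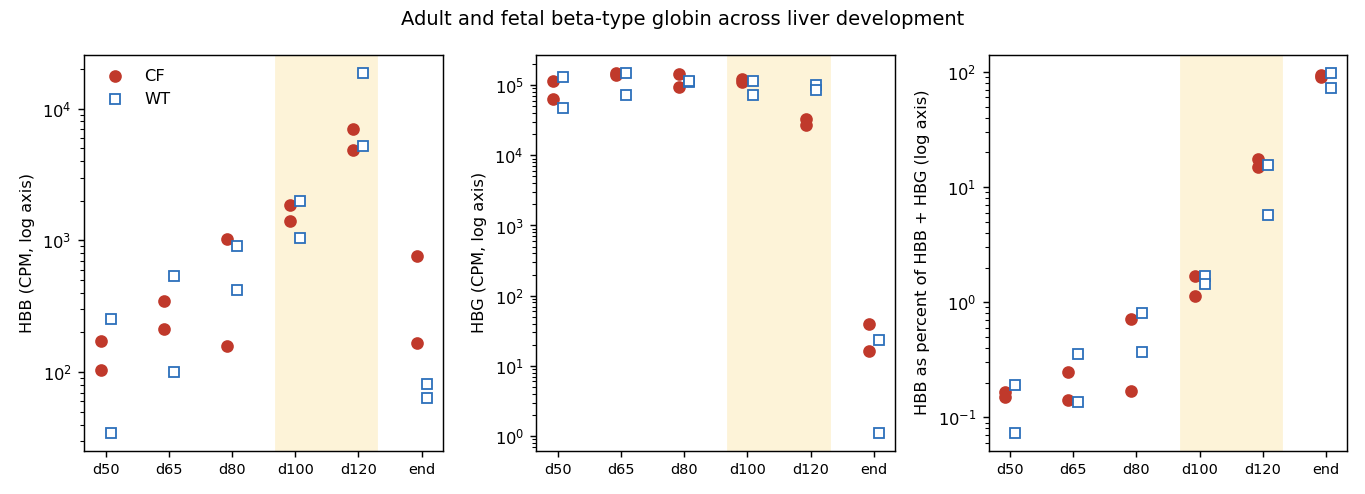
HBB, HBG and HBB as a percent of HBB plus HBG in all 24 liver libraries by stage (end is the end of gestation), on log axes, with CF as filled circles, WT as open squares and d100 and d120 shaded. HBB is higher in every d120 library than in any d100 library, and its percent is 5.68 to 17.6 at d120 and 1.13 to 1.69 at d100.

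By number called higher, cholesterol genes were the next list. Of 30 tested, 5 were called higher, where 1.98% of all genes tested were. Of the 30, 19 had a positive log2 fold, and the median was 0.284. HMGCS1, of an early step of the pathway, averaged 125 ± 13 CPM at d120 and 84.2 ± 8.64 CPM at d100 (SD, n = 4 each). SQLE, squalene epoxidase, averaged 39.1 ± 2.64 CPM and 26.2 ± 1.84 CPM, and SC5D, of a late step, was 1.84-fold higher. INSIG2, which holds back the SREBP activators of the pathway, was at 32.4 and 27.7 CPM in CF and 16.7 and 31.0 CPM in WT at d120, against 14.6 and 14.5 CPM in CF and 9.11 and 9.20 CPM in WT at d100. It was 2.32-fold higher and was called under all 17 alternatives. NPC1L1, the sterol transporter of the canalicular membrane in human, was the fifth, at 1.88 ± 1.04 CPM at d120 and 0.343 ± 0.172 CPM at d100. Leaving out 1 library left between 1 and 6 called. Only 1 was called without both CF d120 libraries, with all 24 libraries or with 1 unit per donor-number stem. Relative to d100, the list's median log2 level was 0.338 and 0.132 in CF and 0.372 and 0.054 in WT at d120. At d80 it was 0.211 and -0.077 in CF and 0.233 and 0.231 in WT, so the d120 levels overlapped those of d80.

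On the bile acid list, with 27 tested and a median of 0.333, 3 transporters were called higher. SLC10A1, the basolateral bile acid importer NTCP, was at 86.2 and 43.8 CPM in CF and 30.4 and 32.0 CPM in WT at d120, against 20.5 and 18.5 CPM in CF and 23.6 and 18.7 CPM in WT at d100. ABCC2, the canalicular exporter of conjugates, was 1.66-fold and SLCO2B1, an organic anion importer, 2.04-fold higher. The step was larger in CF for all 3, with log2 folds of 1.72, 0.90 and 1.57 in CF and 0.56, 0.56 and 0.48 in WT. Their difference between genotypes was not called with all 24 libraries in edgeR, a contrast that called 1 of 16508 genes. Leaving out 1 library left between 0 and 4 members called, and none was called without both CF d120 libraries. CYP7A1, the first enzyme of the classical route to bile acids, had a log2 fold of 0.74 and was not called.

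Single members were called on other metabolic lists. GYS2, liver glycogen synthase, was at 55.5 and 96.2 CPM in CF and 71.6 and 114 CPM in WT at d120, against 34.5 and 34.6 CPM in CF and 45.6 and 46.0 CPM in WT at d100. It was 2.11-fold higher and the only one called of 29 gluconeogenesis and glycogen genes tested. TDO2 and KYNU, both of tryptophan breakdown, were 1.88-fold and 1.67-fold higher among 37 amino acid genes, and ACADL, an acyl-CoA dehydrogenase, 1.74-fold among 33 of fatty acid oxidation. ACADL did not stand for its list, where 16 had a positive and 17 a negative log2 fold, with a median of -0.094. Summed over that list the levels were 2100 to 2540 CPM at d120 and 2620 to 3310 CPM at d100. At an unadjusted p of 0.05, 6 of its members were higher and 11 lower, where 14.3% and 13.5% of all genes were. DESeq2 called 2 higher and 4 lower, against 8.83% and 8.71% of all genes. In iron handling, HFE, a regulator of iron uptake, was 1.67-fold higher and BLVRA, biliverdin reductase, 1.69-fold lower. These 6 genes were called under 7 to 10 of the 17 alternatives.

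The metallothioneins MT1A and MT2A, which bind zinc and copper, were lower in all d120 libraries. MT1A was at 1810 and 2540 CPM in CF and 1360 and 1530 CPM in WT at d120, against 5850 and 5450 CPM in CF and 4490 and 4000 CPM in WT at d100 (2.77-fold lower, adjusted p = 0.00315, edgeR). MT2A was 3.21-fold lower, with nearly equal steps of -1.54 in CF and -1.82 in WT. Both were called without any 1 library and without both CF d120 libraries, but not when the spread was taken from all 24. They are close copies of one another, so the split of reads between them is uncertain. They stood on the glucocorticoid and thyroid hormone list, where SGK1 and DUSP1, both glucocorticoid-induced, were called higher, at 2.48-fold and 1.85-fold. No member of that list was called higher in 5 of the 8 fits with 1 library left out, without both CF d120 libraries or with all 24. FOS, an immediate early gene of the tissue-handling list, was 5.27-fold higher with overlap, at 7.66 and 4.25 CPM in CF and 2.20 and 7.71 CPM in WT at d120, against 0.598 to 2.38 CPM at d100.

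On the growth factor axis, with 20 tested, 2 were called higher. IGFBP1, a liver-secreted binding protein for insulin-like growth factors, was at 34.7 and 141 CPM in CF and 171 and 311 CPM in WT at d120, against 29.5 and 10.9 CPM in CF and 39.2 and 66.3 CPM in WT at d100, so the stages overlapped. IGF2R, the clearance receptor for IGF2, was at 148 and 113 CPM in CF and 43.2 and 47.6 CPM in WT at d120, against 19.2 to 37.0 CPM at d100. Leaving out 1 library left between 0 and 5 members called higher, and none was called without both CF d120 libraries.

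Extracellular matrix genes had larger steps in CF than in WT as a list. Lists of support cell, macrophage and lymphocyte markers had 1 or 2 members called higher each, where 1.98% of all genes tested were. Counts this small give no firm share to set beside that of all genes. Of 44 extracellular matrix genes tested, COL6A1, COL6A2, FN1 and FBLN5 were called higher and COL16A1 lower, with a median of 0.595 in CF alone and 0.164 in WT alone. FN1, fibronectin, was at 961 and 963 CPM in CF and 547 and 833 CPM in WT at d120, against 424 to 494 CPM at d100. Without both CF d120 libraries none was called higher. PDGFRA and HGF, expressed by stellate and other mesenchymal cells, were 1.93-fold and 2.65-fold higher among 24 stellate and mesenchymal markers, whose median was 0.108 in CF alone and 0.183 in WT alone. None of these markers was called higher in 5 of the 8 fits with 1 library left out, without both CF d120 libraries or with all 24. STAB2, a scavenger receptor of sinusoidal endothelium, was 1.72-fold higher among 22 endothelial markers, and CD5L, secreted by Kupffer cells, 3.15-fold among 25 macrophage markers. They were called under 11 and 7 of 17 alternatives. Of the 25 macrophage markers, 22 had a positive log2 fold, with a median of 0.243 in CF alone and 0.25 in WT alone. Summed macrophage marker levels were 1510 to 1710 CPM at d120 and 1300 to 1500 CPM at d100. Of 12 B cell markers tested, CR2 was called, 2.92-fold higher, but 7 had a negative log2 fold, the median was 0.309 in CF alone and -0.655 in WT alone, and DESeq2 called 2 lower. Of 13 T and NK cell markers, CD3E was called, 2.88-fold higher, 10 had a positive log2 fold and the median was 0.48. Neither CR2 nor CD3E was called without both CF d120 libraries or with all 24, and CD3E was not called in 5 of the 8 fits with 1 library left out. Of 24 cholangiocyte markers none was called by edgeR, with a median of 0.445; 9 were higher and 2 lower at an unadjusted p of 0.05, where 14.3% and 13.5% of all genes were, and DESeq2 called 6 higher, against 8.83% of all genes.

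Interferon-induced genes were split. ISG15, a ubiquitin-like protein, was at 24.9 and 44.3 CPM in CF and 41.8 and 25.6 CPM in WT at d120, against 89.2 and 55.5 CPM in CF and 147 and 87.0 CPM in WT at d100, 2.7-fold lower without overlap. IFI6 and XAF1 were 1.78-fold and 1.76-fold lower, and GBP1 was 3.74-fold higher with overlap. Of all genes tested, 1.53% were called lower and 1.98% higher. No list member was called lower in 3 of the 8 fits with 1 library left out, and none higher in 4. With all 24 libraries none was called in either direction, and with 1 unit per donor-number stem none was called lower. Without both CF d120 libraries 3 were called lower and 1 higher. The median of the 37 tested was 0.121 in CF alone and -0.602 in WT alone. ISG15 averaged 26.5 ± 10.2 CPM at d80, 95.5 ± 39.8 CPM at d100 and 34.4 ± 10.7 CPM at d120 (SD, n = 4 each). Its mean was thus highest at d100 among d80, d100 and d120, and its levels at other stages are not given here.

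**Figure D4:**
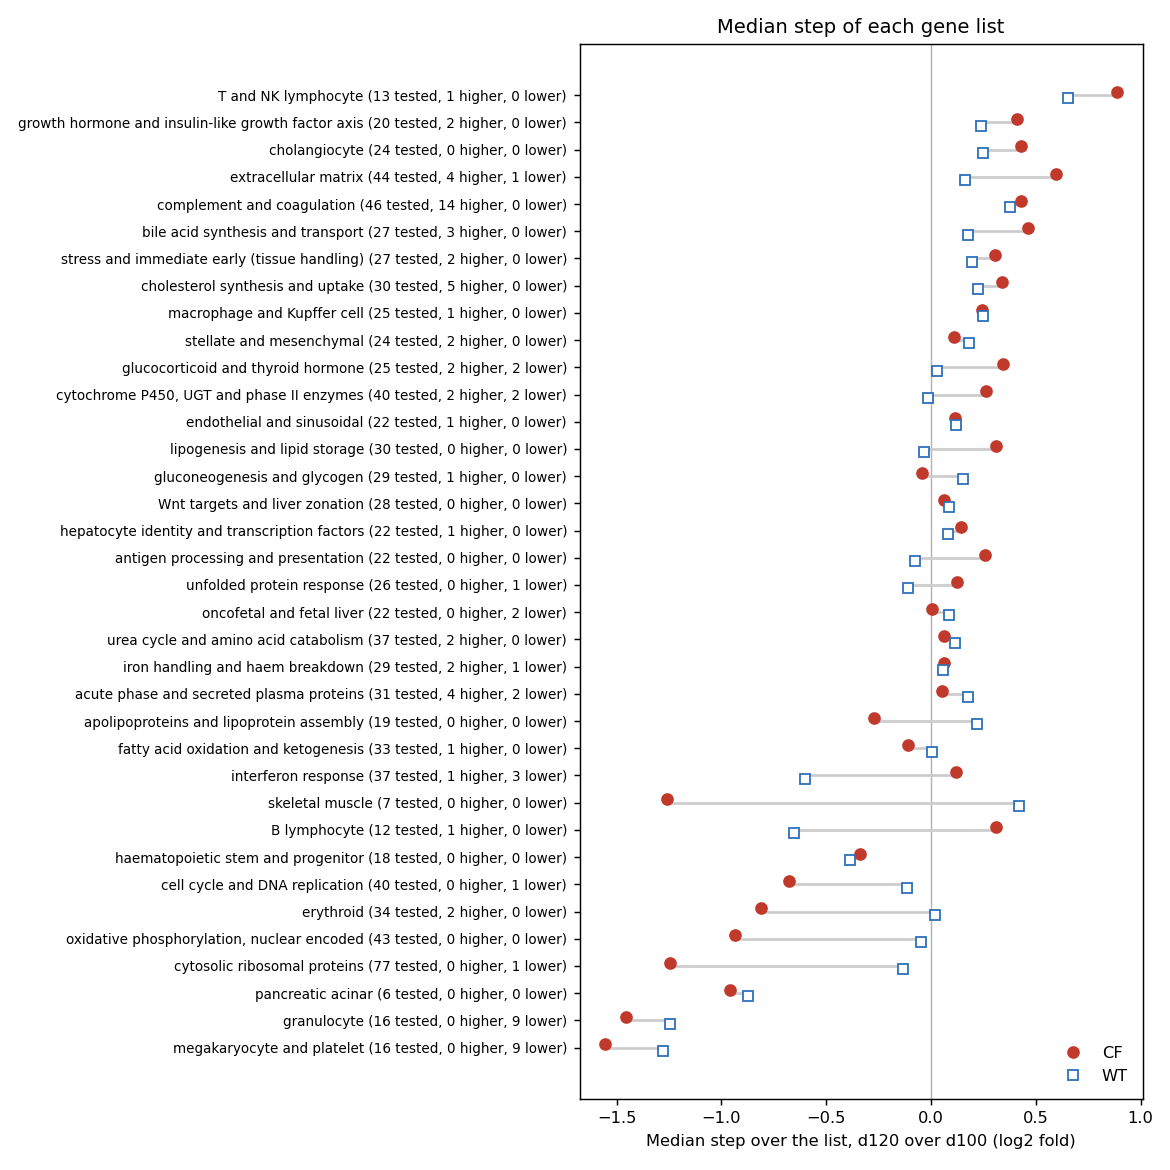
Median log2 fold of d120 over d100 over each of 36 gene lists, in CF (filled circles) and WT (open squares), with the numbers tested and called in the label. The megakaryocyte and granulocyte lists lie at the low end in both genotypes, while the ribosomal, oxidative phosphorylation and erythroid lists are below -0.8 in CF and between -0.132 and 0.017 in WT.

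Several broad lists had negative medians in CF and medians near 0 in WT, and edgeR called few of their members in the shared test. All 77 cytosolic ribosomal protein genes had a negative log2 fold in CF and 66 did in WT, with medians of -1.25 in CF and -0.132 in WT. At an unadjusted p of 0.05, 68 were lower, where 13.5% of all genes were, and DESeq2 called 60 lower, against 8.71% of all genes. RPS6 was the 1 called by edgeR, at 407 and 474 CPM in CF and 913 and 779 CPM in WT at d120, against 1020 to 1340 CPM at d100. Of 43 oxidative phosphorylation genes none was called by edgeR, although 26 were lower at an unadjusted p of 0.05 and 16 were called lower by DESeq2, to be read against the same shares of all genes. Their medians were -0.934 in CF and -0.046 in WT. Of 40 cell cycle genes CCNE1 was called lower, with medians of -0.677 in CF and -0.113 in WT; 21 were lower at an unadjusted p of 0.05 and DESeq2 called 14 lower. With 1 library left out, edgeR called between 0 and 59 ribosomal, 0 and 20 oxidative phosphorylation and 0 and 19 cell cycle genes lower, and without both CF d120 libraries 0 of each. Summed ribosomal protein levels were 28400 and 36300 CPM in CF and 62700 and 58000 CPM in WT at d120, against 61500 to 76700 CPM at d100. These lists moved with the 2 libraries that stood apart on the first principal component; the part of RNA quality or cell make-up in this was not tested.

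Among the 15 largest steps on each side, many genes stood on no list. ABCA10, a member of the ABC transporter family, was at 8.46 and 6.19 CPM in CF and 4.12 and 6.62 CPM in WT at d120, against 0.833 and 0.842 CPM in CF and 1.87 and 1.06 CPM in WT at d100 (5.61-fold higher, adjusted p = 0.00729, edgeR). TPH1, the rate-limiting enzyme of peripheral serotonin synthesis, was at 14.1 and 11.4 CPM in CF and 1.86 and 3.42 CPM in WT at d120, against 0.133 to 0.988 CPM at d100. SCOC, SEPN1, FAT1, FAM127A, CMTM6, MYRF, ZNF385A and SRGAP2 were 4.12-fold to 5.51-fold higher. Each was higher in both genotypes without overlap, which the rule that picked the largest steps required and which is therefore no separate result. Their log2 folds were 2.80 to 3.36 in CF and 0.92 to 1.86 in WT, and none of the 8 was called without both CF d120 libraries.

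On the lower side, S100G, the calcium carrier calbindin-D9k, was at 1.30 and 2.65 CPM in CF and 3.19 and 3.32 CPM in WT at d120, against 11.3 and 4.54 CPM in CF and 31.4 and 39.9 CPM in WT at d100 (6.70-fold lower, adjusted p = 0.00904, edgeR). NAALADL1, a peptidase, was 5.19-fold lower and MRVI1, a target of cGMP-dependent kinase in platelets and smooth muscle, 4.07-fold, and both were called under all 17 alternatives. SYTL3 and the immunoglobulin light chain gene IGLC3 were 4.39-fold and 3.94-fold lower.

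The step in each genotype alone rested on 2 libraries a side. In CF alone 23 of 16508 genes (0.139%) were called, 5 higher and 18 lower, and in WT alone 8 (0.0485%), 2 higher and 6 lower. The difference between the CF and the WT step was called for 1 gene (0.00606%), NPM1, a nucleolar chaperone, which was at 37.9 and 41.1 CPM in CF and 51.1 and 43.9 CPM in WT at d120, against 67.2 and 53.3 CPM in CF and 3.16 and 2.45 CPM in WT at d100. The 2 WT d100 libraries were low and the other 6 were similar to one another. None of the 537 genes called in the shared test was called for this difference when the spread came from all 24 liver libraries in edgeR. That does not show equal steps, because the contrast called 1 gene in all. The shared test also counts such a difference as spread. An unadjusted p under 0.05 for this difference was found for 1292 of 16508 genes (edgeR), where chance alone would give a share of 0.05. DESeq2 called 13. With the spread taken from the 8 libraries alone, edgeR called 640 of 15322 genes tested, and 29 of the 537 were among them.

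The step from d100 to d120 was then set against the step before it, from d80 to d100, which has the same length of 20 days; both use the d100 libraries. The steps differed for 3 genes (0.0182%), namely PF4, TUBB1 and LOC105608654, which was at 0 in both WT d120 libraries. None was called in 7 of the 12 fits with 1 library left out, namely those without WT d120 replicate 2, CF d120 replicate 1, WT d100 replicate 2, either CF d100 library, WT d80 replicate 1 or CF d80 replicate 2. PF4 averaged 218 ± 35.0 CPM at d80, 178 ± 36.5 CPM at d100 and 38.1 ± 19.2 CPM at d120 (SD, n = 4 each), and the later log2 step was lower by 2.06 ± 0.29 SE than the earlier one (adjusted p = 0.0111, edgeR). TUBB1 averaged 68.4 ± 8.93 CPM, 57.9 ± 18.6 CPM and 13.1 ± 6.52 CPM at these stages. ELANE averaged 12.1 ± 5.31 CPM at d80, 16.4 ± 4.45 CPM at d100 and 3.79 ± 1.11 CPM at d120, and MPO 26.4 ± 10, 38.9 ± 10.4 and 12.1 ± 2.31 CPM.

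Levels at the other stages are given for 4 of the called genes. C6 averaged 1.36 ± 0.842 CPM at d80, 7.58 ± 1.45 CPM at d100, 39.6 ± 12 CPM at d120 and 380 ± 307 CPM at the end of gestation (SD, n = 4 each). These averages pool both genotypes, which lay apart on the complement and coagulation list at the end of gestation. The list's median log2 level relative to d100 was then 0.76 and -0.455 in CF and 1.74 and 1.92 in WT. FGL1 averaged 0.787 ± 0.49 CPM at d50, 43.3 ± 15.6 CPM at d80, 83.0 ± 29.3 CPM at d100 and 271 ± 56.7 CPM at d120. AFP averaged 42800 ± 4590 CPM at d50, 22500 ± 5030 CPM at d80, 13200 ± 2970 CPM at d100, 2430 ± 1670 CPM at d120 and 95.2 ± 88.2 CPM at the end of gestation. MT1A, in contrast, was at 5860 ± 2970 CPM at d50 and 5930 ± 1830 CPM at d80, and at 1810 ± 515 CPM at d120.

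**Figure D5:**
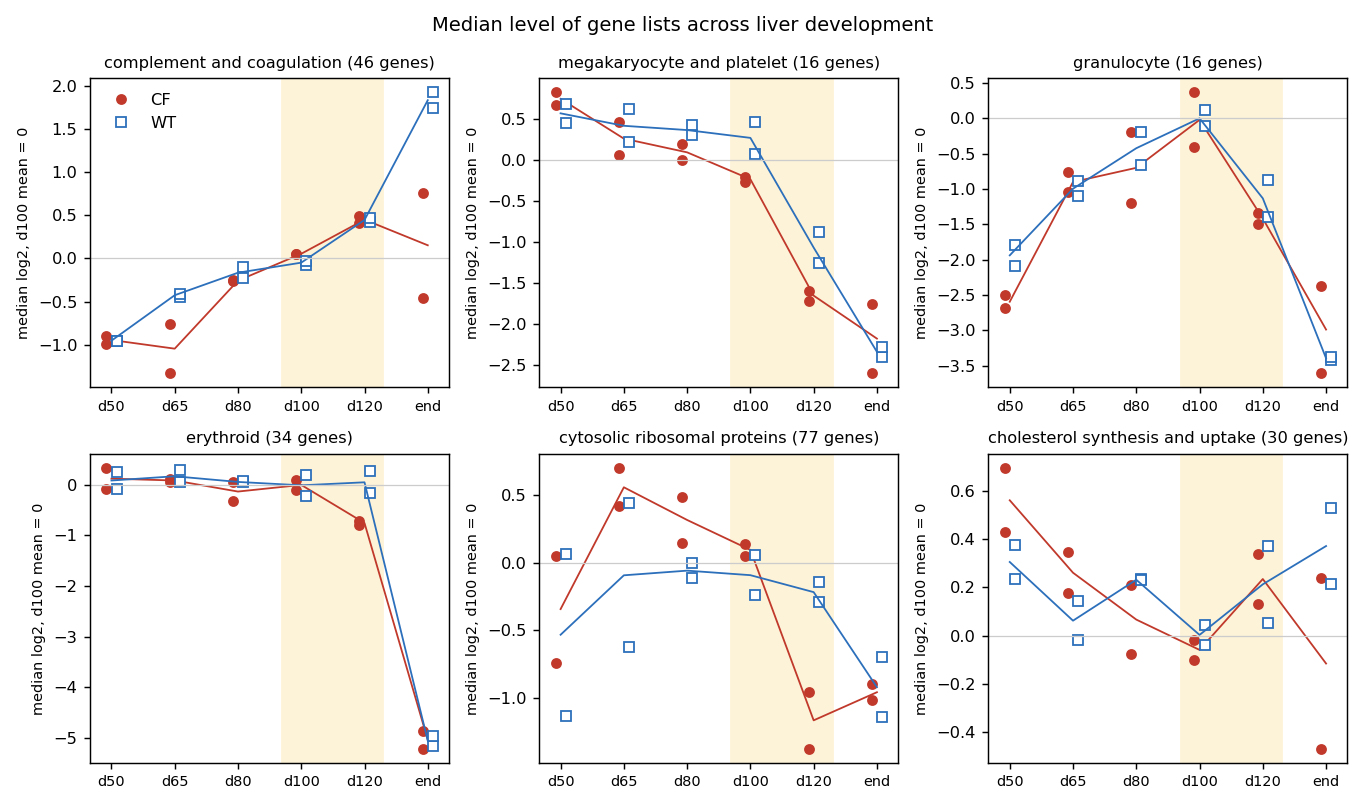
Median log2 level of 6 gene lists in each of the 24 liver libraries, relative to the mean of the d100 libraries, by stage (end is the end of gestation), with CF as filled circles, WT as open squares, lines through the genotype means and d100 and d120 shaded. Complement and coagulation genes are higher at d120 and megakaryocyte genes lower in both genotypes, granulocyte genes are highest at d100, and the erythroid and ribosomal lists are lower at d120 in CF.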

How the data were processed

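Frozen tissue was homogenised in TRIzol, per the labels' protocols. The deposited liver table holds estimated counts per gene, 1 column per library, for 22981 genes. Its name mentions TPM, but the columns do not share a total, and 87.5% of values between 0.5 and 1.5 lay within 0.1 of 1, so it was read as estimated counts made by the authors. A rescaling by transcript length was not tested. The submitters' processing notes name DESeq2, limma, edgeR, Salmon 1.9.0 and 1.10.1, and STAR 2.7.9a without saying what each did. No source used here gives the genome build, and no positions are printed. Locus numbers were given a symbol from the RefSeq gene table where they matched, 127 in all, and 1005 of 1081 list symbols had a row.

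Counts were rounded and fitted in edgeR 4.0.16 (R 4.3.3) with TMM factors, filterByExpr on the groups, and genotype and stage as additive terms over the 8 libraries; a gene was called at a Benjamini-Hochberg adjusted p under 0.05, two-sided, over all genes tested. The steps in each genotype, their difference and the earlier step came from a fit of 12 group means over all 24 liver libraries. Levels are CPM with TMM factors, and SE was computed from the log2 fold and its F statistic. The procedure was tested on simulated counts, where it called 62% of 100 genes changed 2-fold and 84% of 100 changed 4-fold. It made 9 false calls among 14966 genes. The simulated counts held no genotype effect and no libraries that stood apart, unlike these data. The alternatives were the Wald test of DESeq2 1.42.0, DESeq2 size factors, low counts kept, all 24 libraries, an interaction term, 1 unit per donor-number stem, a replicate block within WT, limma 3.58.1 voom and each library left out; leaving out both CF d120 libraries was added after seeing the data.

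The text names the 15 genes with the largest log2 fold per direction among those called with a symbol, a mean of at least 2 CPM, the same sign in both genotypes and no overlap between stages. It also names the 4 members of a list with the smallest p, its best known genes, and up to 5 genes per direction of the other contrasts. Further called list members, F2, F7, PROC, ITGAM, CXCR1 and CXCR2, and the genes of the closing section were chosen after their values were seen. The comparison, the 36 lists and the tests were chosen with earlier results of these data known. Labels do not say that libraries of a group came from separate litters, so p-values measure the spread between these libraries. The gallbladder table and the chromatin accessibility libraries were not used here, and some genes that the rule names are not reported here.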

Additional observations from a re-analysis of the deposited data

Results flagged for a closer look

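Each of the named genes was checked for 1 library of a stage lying far from the other 3 by Dixon's ratio at the 95% level, which chance exceeds in about 5% of groups. Of 222 groups, 111 genes at 2 stages each, 13 exceeded it. HBB stood out at 18300 CPM in WT d120 replicate 1, against 4870 to 6960 CPM in the other d120 libraries. WT d100 replicate 2 was the highest d100 library for PF4 at 235 CPM, TUBB1 at 86.3 CPM, CLEC1B at 52.7 CPM, HGF at 5.09 CPM and FOS at 2.38 CPM. WT d120 replicate 1 was apart for S100A12 at 37.2 CPM, the highest at d120, and for C7 at 6.31 CPM and HGF at 5.84 CPM, the lowest at d120. DDIT3 was highest in WT d120 replicate 2 at 12.8 CPM. PRTN3 was highest at 4.79 CPM in WT d120 replicate 2 and at 14.7 CPM in CF d100 replicate 2, and SAA4 was highest in CF d120 replicate 1 at 57.8 CPM. HBB was called under 13 of 17 alternatives, and PF4, TUBB1 and C7 under all 17.

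NPM1 differed between the genotypes in its step, with a CF step minus WT step of -4.70 ± 0.41 SE on the log2 scale (adjusted p = 2.02e-05, edgeR). It was at 3.16 and 2.45 CPM in the WT d100 libraries and at 37.9 to 67.2 CPM in the other 6. The cause was not tested.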

How the results depend on the processing

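The 537 calls of the shared test became 1645 without the filter on low counts, 2531 with the DESeq2 Wald test, 3447 with an interaction term and 945 with voom. They became 72 (26 higher, 46 lower) with all 24 libraries, 172 with 1 unit per donor-number stem and 120 without both CF d120 libraries; DESeq2 size factors gave 539. With a replicate block within WT, whose numbers are suffixes after the donor stem and not a shared animal, 325 genes were called, 188 higher and 137 lower. Leaving out 1 library gave 82 to 2232. CF alone gave 409 calls without the filter, 1926 by DESeq2 and 2 to 5 with 1 library left out, and WT alone 25, 79 and 2 to 7. The genotype difference gave 640 calls in the 8 libraries alone, 13 by DESeq2 and 1 to 2 with 1 library left out, and the contrast with the earlier step 10 without the filter, 32 by DESeq2 and 0 to 4. Among named genes, sign changes were found for uncalled ones: ALB had log2 folds between -0.11 and 0.06 with 1 library left out and 0.08 without both CF d120 libraries, where HBA1 had 0.22 and HBG 0.00. The causes were not tested.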

Other observations

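Cathelicidin genes, which stood on no list, were lower in every d120 library than in any d100 library. Cathelicidins are antimicrobial peptides stored in the granules of ruminant neutrophils. SC5 was at 20.3 and 28.7 CPM in CF and 47.6 and 39.1 CPM in WT at d120, against 96.4 and 165 CPM in CF and 106 and 124 CPM in WT at d100 (3.76-fold lower, adjusted p = 0.00627, edgeR). CATHL1B averaged 46.6 ± 13.8 CPM at d120 and 169 ± 47.1 CPM at d100, CATHL3 22.0 ± 7.56 CPM and 60.7 ± 20.3 CPM, and BAC5 50.0 ± 12.1 CPM and 135 ± 41.5 CPM (SD, n = 4 each). All 4 were called lower. They are close copies of one another, so the split of reads between them is uncertain.

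RETN, resistin, which in human is made by myeloid cells, was 2.77-fold lower at d120. LRG1, a leucine-rich glycoprotein secreted by liver, was at 92.1 and 123 CPM in CF and 105 and 116 CPM in WT at d120, against 50.5 and 58.0 CPM in CF and 35.1 and 42.7 CPM in WT at d100 (2.38-fold higher, adjusted p = 0.00599, edgeR), and was called under all 17 alternatives. These genes were chosen after their values were seen.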
